A study of Mus musculus with 9 samples.

Results

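Interferon-stimulated genes were followed in CD8 T cells of 3 transnuclear clones, named R7-I, R7-II and R7-III. The list holds 45 genes that are known to respond to interferon. They were taken by symbol, all 45 were found among the 24060 genes measured, and 44 were among the 11330 genes tested, which reached more than 1 TPM (a level corrected for transcript length and library total) in at least 1 library. The list was divided by general knowledge into 32 genes induced mainly by type I interferon, 8 induced mainly by interferon gamma (Irf1, Igtp, Irgm1, Irgm2, Iigp1, Tgtp1, Tgtp2 and Ifi47), and 5 that respond to both (Irf2, Ifi35, Parp9, Parp14 and Dtx3l).

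Each line of BALB/c mice carries the T cell receptor of a single CD8 T cell that recognises the ROP7 peptide of Toxoplasma gondii. Each clone thus represents 1 receptor. Measured on purified proteins, the receptors bound this peptide with high (R7-I), intermediate (R7-III) or low (R7-II) affinity. In the study's measurement on whole cells, R7-I and R7-III had similar affinity and R7-II a lower one. The question was how the clones differ once activated. Whole splenocytes were cultured overnight in IL-2 at 10 ng/ml with the peptide at 10 µM. Live CD8+ T cells that bound the ROP7 tetramer were then sorted and their polyadenylated RNA was sequenced. All 9 libraries, 3 per clone, were of activated cells, and unstimulated cells were not analysed here. The labels call the libraries biological replicates without giving the number of animals, so p-values measure only the spread between these libraries.

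Type I interferons signal through Ifnar1 and Ifnar2, with the kinases Jak1 and Tyk2, to a complex containing Stat2 and Irf9 that binds interferon-stimulated response elements (ISRE). Interferon gamma, which activated CD8 T cells secrete, signals through Ifngr1 and Ifngr2, with Jak1 and Jak2, and acts on gamma-activated sites (GAS) in promoters. In mice the immunity-related GTPases induced in this way are known for their attack on the vacuole in which Toxoplasma lives.

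Promoter stretches are shown for GTPases and antiviral genes that the results below turn on, so that the letters of both groups can be compared. Promoter windows of 250 bases before to 50 bases after the start were taken from RefSeq on GRCm38.p6 and held 34 of the 45 genes. No window was at hand for Rtp4, Dhx58, Usp18, Parp9, Zbp1, Iigp1, Ifi27l2a, Oas2, Parp14, Mx2 and Mx1. The ISRE core, taken as GAAA, 2 free bases and GAAA and searched on both strands, was in the windows of 18 of the 34 genes and in 3.99% of the 27025 genes with a window. The GAS letters, taken as TTC, 3 free bases and GAA, which read the same on both strands, were in 12 of the 34 and in 9.55% of all. In a joined arrangement the GAS letters are followed after 2 free bases by the ISRE core, so that it contains both other motifs. This arrangement was in 5 windows of the 27025 (0.0185%), 4 of them those of Igtp, Irgm2, Tgtp1 and Tgtp2. These 4 genes are all immunity-related GTPases and share letters next to the match, so their windows are not independent of each other. Capitals mark the letters matched, each stretch is written on the strand of its gene, and TTTC, 2 free bases and TTTC is the ISRE core on the other strand.
Igtp, chr11:58199496-58199546, plus strand: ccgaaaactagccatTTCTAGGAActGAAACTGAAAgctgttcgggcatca
Irgm2, chr11:58214887-58214937, plus strand: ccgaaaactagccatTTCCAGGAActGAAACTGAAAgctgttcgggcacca
Tgtp1, chr11:48992299-48992349, minus strand: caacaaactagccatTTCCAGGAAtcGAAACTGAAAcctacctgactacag
Tgtp2, chr11:49064258-49064308, minus strand: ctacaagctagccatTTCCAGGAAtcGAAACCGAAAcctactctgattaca
Irgm1, chr11:48871421-48871465, minus strand: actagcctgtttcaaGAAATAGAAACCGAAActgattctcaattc
Ifit3, chr19:34583358-34583431, plus strand: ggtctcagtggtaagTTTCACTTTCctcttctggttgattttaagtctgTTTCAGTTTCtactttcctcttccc
Ifit1, chr19:34640770-34640828, plus strand: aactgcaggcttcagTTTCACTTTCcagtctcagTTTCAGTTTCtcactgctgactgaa
Isg15, chr4:156200860-156200911, minus strand: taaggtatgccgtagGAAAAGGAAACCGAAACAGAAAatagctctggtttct
Bst2, chr8:71537572-71537623, minus strand: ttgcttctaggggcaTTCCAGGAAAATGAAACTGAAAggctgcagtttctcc

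In these stretches Ifit1 and Ifit3 held the ISRE core in 2 places, Isg15 held 3 overlapping matches, and Bst2 held a GAS overlapping its ISRE letters. A match is a description of the letters and not evidence of binding in these cells.

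The libraries were alike in the number of genes detected. Between 13738 and 14434 genes were above 0 in each, and libraries of the same clone correlated at 0.992 or more on log2(TPM + 1) across genes. TPM carries no read number, and the methods of the study give only a typical depth for all of its samples, so no counting error is given for single libraries. The T cell markers Cd3d, Cd3e, Cd3g, Cd8a, Cd8b1, Cd247 and Thy1 summed to 2473 to 2609 TPM in R7-II, 1728 to 1813 in R7-I and 1840 to 1919 in R7-III, and 6 of the 7 rose in R7-II against each of the other clones. Markers of natural killer cells summed to 0.17 TPM or less. Markers of several other cells were also higher in R7-II. The 8 B cell markers summed to 34.2 to 71.2 TPM in R7-II, 8.14 to 15.2 in R7-I and 4.92 to 7.40 in R7-III, and all 7 of those tested passed against both other clones. The 7 MHC class II genes summed to 112 to 183 TPM in R7-II, 32.4 to 50.3 in R7-I and 24.3 to 28.1 in R7-III, and all 7 passed in both. The 9 myeloid markers summed to 26.8 to 86.3 TPM in R7-II, 4.71 to 6.41 in R7-I and 5.92 to 8.19 in R7-III, and 6 of the 8 tested passed in both. The myeloid marker Cd14 was listed at 0 throughout R7-I. The 6 markers of plasmacytoid dendritic cells summed to 14.1 to 25.2 TPM in R7-II, 4.20 to 4.87 in R7-I and 3.55 to 4.77 in R7-III. Of the 3 tested, the chemokine receptor gene Ccr9 and the transcription factor gene Spib passed in both comparisons and Tcf4 in neither. Ccr9, at 17.4, 10.8 and 19.8 TPM in R7-II replicates 1, 2 and 3, made up most of the R7-II sums. Tcf4 was lower in all R7-II libraries than in all R7-I libraries. Siglech, the defining marker, did not exceed 0.05 TPM in any library. The 4 CD4 T cell markers summed to 4.03 to 5.81 TPM in R7-II, 3.36 to 4.11 in R7-I and 5.62 to 8.01 in R7-III. B cells and myeloid cells also respond to interferon, and the part of these markers in the results below was not tested. In bulk RNA, fewer cells with a transcript and less transcript per cell cannot be told apart.

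Expression of the 45 genes spanned from traces to the range of T cell receptor subunits. On average over the 9 libraries, Irf1, Bst2, Ifi27l2a, Igtp and Ifi47 were above 100 TPM, 19 genes lay between 10 and 100, 16 between 1 and 10, and Oas1a, Oasl2, Mx1, Rsad2 and Ifi44 below 1. The antiviral effectors Mx1, whose gene is defective in most inbred mouse strains, and Rsad2 (viperin) were thus present at traces. Oasl2, an oligoadenylate synthetase-like protein, reached at most 0.48 TPM and was the 1 gene not tested.

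**Figure D1:**
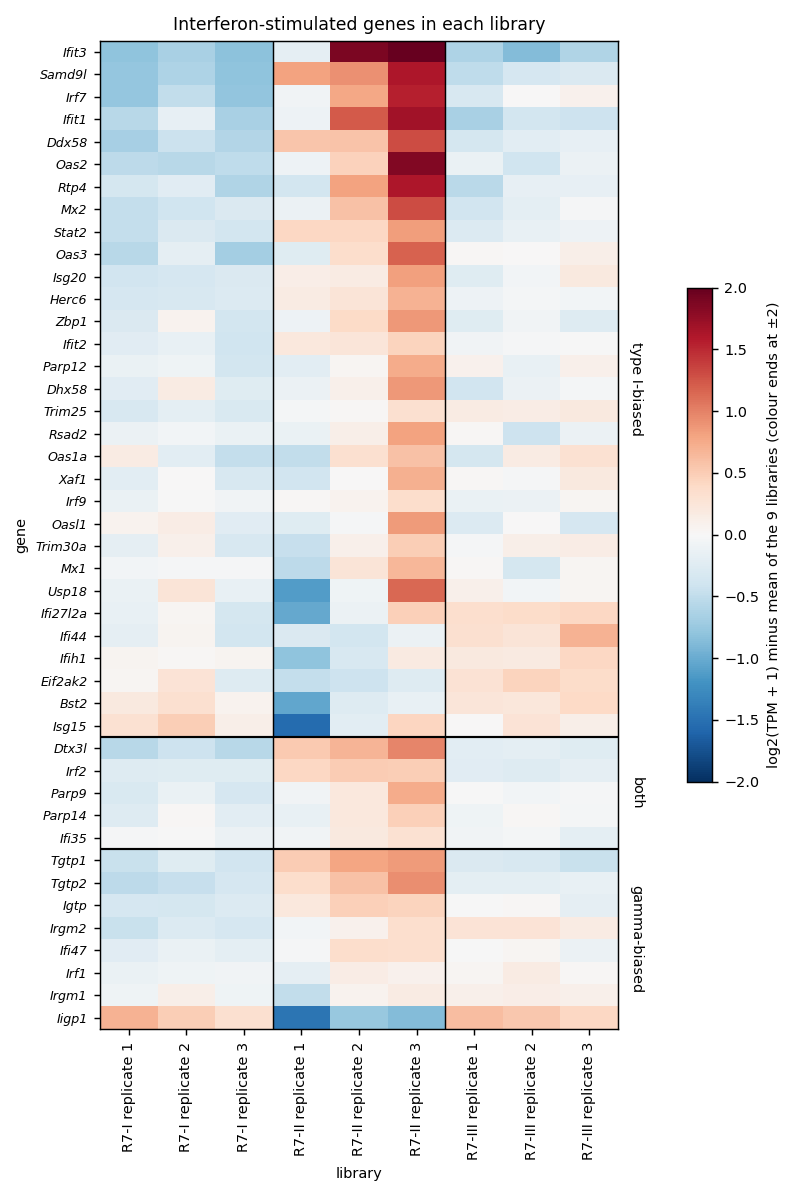
Level of the 44 genes tested in each of the 9 libraries, as log2(TPM + 1) minus the mean of the 9 (colour, from blue below to red above, ending at ±2), with genes in 3 blocks by the interferon that mainly induces them. Among the 3 R7-II columns, replicate 1 is lowest and replicate 3 highest for 38 of the 44 genes.

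The clearest pattern was not between clones but within R7-II, whose libraries ran in the same order for nearly the whole list. All 45 genes were higher in R7-II replicate 3 than in R7-II replicate 1, as were 39.9% of all genes tested. Replicate 1 was the lowest and replicate 3 the highest R7-II library for 38 of 44 genes, against 11.1% of all genes tested, and for 30 of the 31 type I-biased genes. The exceptions were Ifi44, lowest in replicate 2, and Irf1, Irf2, Igtp, Iigp1 and Ifi47, highest in replicate 2. These counts describe 3 libraries and carry no test, since the genes are not independent of each other.

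The size of this difference varied between the groups of the list, which also differed in level. All 8 gamma-biased genes averaged above 10 TPM, while most of the type I-biased genes did not. The median ratio of TPM in R7-II replicate 3 to replicate 1 was 2.74 over the 32 type I-biased genes, 1.31 over the 8 gamma-biased genes, 1.38 over the 5 genes that respond to both, and 0.978 over all genes tested that were above 0 in both. The log2 range over the 3 R7-II libraries had a median of 0.98 for type I-biased genes, 0.39 for gamma-biased genes and 0.17 for all genes tested. In 14 of 44 genes, all of them type I-biased, the highest R7-II library was more than 2-fold above the lowest on the TPM + 1 scale, against 1.98% of all genes tested. No gene of the list ranged so far within R7-I or R7-III, where the median range over the list was 0.21 and 0.18. Among type I-biased genes averaging above 10 TPM, the ratio of R7-II replicate 3 to replicate 1 ran from 1.26 for Irf9 to 4.19 for Isg15. The part of level in the difference between the groups was not tested.

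Genes of the type I response illustrate how wide this was. Ifit3, which binds foreign RNA together with Ifit1, was at 2.90, 15.2 and 26.6 TPM in R7-II (values are given in the order of replicates 1, 2 and 3), at 1.53, 1.81 and 1.49 in R7-I and at 1.86, 1.41 and 1.91 in R7-III. Ifit1 was at 3.06, 9.24 and 13.0 TPM in R7-II, at 1.99, 2.89 and 1.79 in R7-I and at 1.79, 2.39 and 2.30 in R7-III. For both genes every R7-II library was above the other 6, yet R7-II replicate 1 stood close to them. Usp18, which removes Isg15 from proteins and restrains the type I receptor, was at 1.74, 4.61 and 12.1 TPM in R7-II, at 4.39, 6.09 and 4.33 in R7-I and at 5.35, 4.72 and 5.13 in R7-III. Its R7-II libraries thus held both the lowest and the highest of the 9 values. The same was seen for Oas1a, Mx1, Ifi27l2a, Xaf1, Trim30a and Irgm1, in all 7 of 44 genes against 0.300% of all genes tested.

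Isg15, the ubiquitin-like protein whose promoter letters are shown above, was at 11.9, 31.4 and 49.9 TPM in R7-II, at 45.5, 52.2 and 39.9 in R7-I and at 36.8, 44.5 and 40.0 in R7-III. R7-II replicate 1 was the lowest of all and R7-II replicate 3 lay within the range of R7-I. Rtp4, a chaperone of receptors, was at 3.86, 10.0 and 18.3 TPM in R7-II and between 3.16 and 4.62 TPM in the other 6 libraries, so that R7-II replicate 1 lay among these and the other two above them. Oas2, which makes the activator of RNase L, was at 0.79, 1.63 and 5.92 TPM in R7-II, at 0.33, 0.30 and 0.35 in R7-I and at 0.74, 0.45 and 0.77 in R7-III. Its R7-II libraries were all above the others, replicate 1 by a narrow margin.

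The remaining 5 genes that differed more than 4-fold within a clone were weakly expressed. Oas1a was at 0.28, 1.24 and 1.72 TPM in R7-II, at 1.01, 0.56 and 0.30 in R7-I and at 0.41, 1.02 and 1.23 in R7-III. Of all 100-base stretches in its annotated transcripts, 40.9% also occur in Oas1g, so how reads were shared between these genes is uncertain. Mx1 was at 0.31, 1.24 and 1.98 TPM in R7-II, at 0.82, 0.85 and 0.85 in R7-I and at 0.91, 0.48 and 0.93 in R7-III. Rsad2 was at 0.24, 0.46 and 1.37 TPM in R7-II, at 0.25, 0.30 and 0.24 in R7-I and at 0.38, 0.02 and 0.25 in R7-III. In each of these 3 genes R7-II replicate 3 was the highest of the 9 libraries, and R7-II replicate 1 was the lowest for Oas1a and Mx1 and within the range of the others for Rsad2. Oasl2 was at 0.03, 0.10 and 0.48 TPM in R7-II, at 0.08, 0.06 and 0.14 in R7-I and at 0.07, 0.09 and 0.12 in R7-III, so that both its lowest and its highest value lay in R7-II. Ifi44 was at 0.10, 0.04 and 0.24 TPM in R7-II, at 0.18, 0.39 and 0.04 in R7-I and at 0.67, 0.60 and 1.16 in R7-III. Its R7-II and R7-I libraries overlapped, and all of them lay below R7-III.

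**Figure D2:**
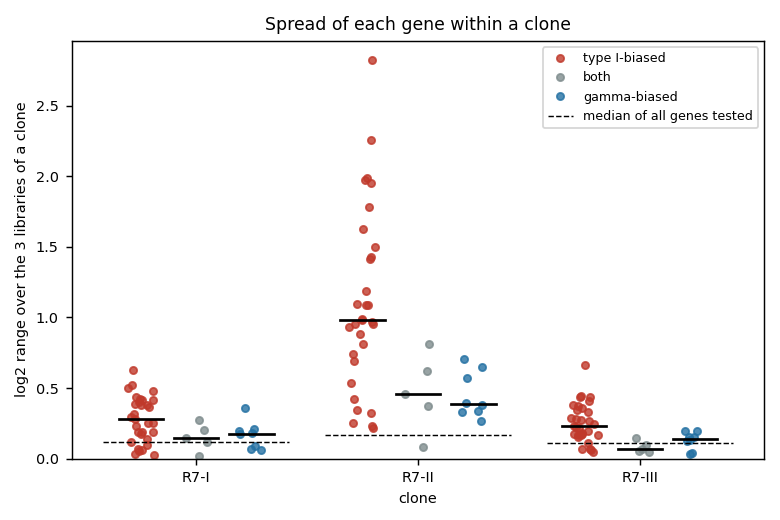
Log2 range of TPM + 1 over the 3 libraries of each clone (points, 1 per gene tested, coloured by the interferon that mainly induces it), with the median of each group as a bar and the median of all genes tested as a dashed line. Type I-biased genes ranged widely in R7-II alone, with a median of 0.98 against 0.28 in R7-I and 0.23 in R7-III.

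Other measures did not all follow the order of the R7-II libraries. Summed B cell markers were 71.2, 34.2 and 54.4 TPM in R7-II replicates 1, 2 and 3, MHC class II genes 183, 112 and 181 TPM, and myeloid markers 48.0, 26.8 and 86.3 TPM. Markers of plasmacytoid dendritic cells summed to 21.9, 14.1 and 25.2 TPM, most of it from Ccr9. These 4 lists were lowest in replicate 2, where the interferon-stimulated genes were intermediate, and replicate 3 was the highest for the myeloid and plasmacytoid dendritic cell lists. The sum of the CD4 T cell markers, at 4.03, 4.56 and 5.81 TPM, ran in the order of the interferon-stimulated genes. Of these markers only Cd40lg, at 1.28, 2.38 and 2.87 TPM, had this order, while Cd4, Foxp3 and Zbtb7b were lowest in replicate 2. The CD8 T cell markers, at 2511, 2473 and 2609 TPM, did not run in the order of the interferon-stimulated genes. Ifng, which encodes interferon gamma, was at 25.2, 36.9 and 47.5 TPM in the same libraries and so ran in that order too. Type I interferon genes gave no such values, as described below. The part of these levels in the order of the libraries was not tested.

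Against R7-I, R7-II expressed 19 of the 44 genes at a higher and 2 at a lower level (limma, adjusted p under 0.01). This was 47.7% of the list, while 56.1% of all genes tested passed in this comparison (40.6% higher, 15.5% lower), so that the list did not stand out by its number of calls. With libraries scaled by the median of ratios the counts were 12 higher and 3 lower, and this scaling also took the median log2 difference of all genes from 0.17 to 0.0084. The median log2 difference was 0.40 over the list, 0.39 over type I-biased and 0.44 over gamma-biased genes, against that 0.17 of all genes. Of the groups, 11 of 31 type I-biased genes rose and Bst2 fell, 5 of 8 gamma-biased genes rose and Iigp1 fell, and 3 of the 5 genes that respond to both rose. All 3 R7-II libraries lay above all 3 R7-I libraries for 21 genes and below them for 3, against 50.6% and 20.6% of all genes tested. The CD8 T cell, B cell, MHC class II and myeloid sums given above were also higher in all R7-II libraries. So was the plasmacytoid dendritic cell sum, most of which was Ccr9 in R7-II. The part of these sums in these calls was not tested.

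Against R7-III, 12 of the 44 genes were higher in R7-II and 4 were lower (Bst2, Ifi44, Eif2ak2 and Iigp1), or 36.4% of the list, where 53.6% of all genes tested passed (35.6% higher, 18.0% lower). The median log2 difference was 0.33 over the list, 0.39 over type I-biased and 0.09 over gamma-biased genes, and 0.12 over all genes. Scaled by the median of ratios, that of the gamma-biased genes turned to -0.033. All R7-II libraries were above those of R7-III for 13 genes and below for 5, against 46.4% and 24.3% of all genes tested. Without R7-II replicate 1 the higher calls became 21, and without R7-II replicate 3 they became 8, with 7 lower.

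Both comparisons share the R7-II libraries, so they are not independent. The genes higher in both were 12 of 44, against 31.9% of all genes tested: Stat2, Irf2, Ifit1, Ifit2, Ifit3, Samd9l, Ddx58, Herc6, Dtx3l, Igtp, Tgtp1 and Tgtp2. Bst2 and Iigp1 were lower in both, against 12.8% of all genes tested. Differences beyond 2-fold in both comparisons were found for Ifit1, Ifit3, Samd9l, Ddx58 and Tgtp1 above (4.17% of all genes tested) and for Iigp1 below (1.11%). In 13 genes, these 12 and Oas2, the R7-II libraries exceeded all other 6, as in 41.7% of all genes tested, and in Bst2, Eif2ak2 and Iigp1 they lay below all 6, as in 17.4%. Without R7-II replicate 1 the number higher in both became 21, and without R7-II replicate 3 it became 8.

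**Figure D3:**
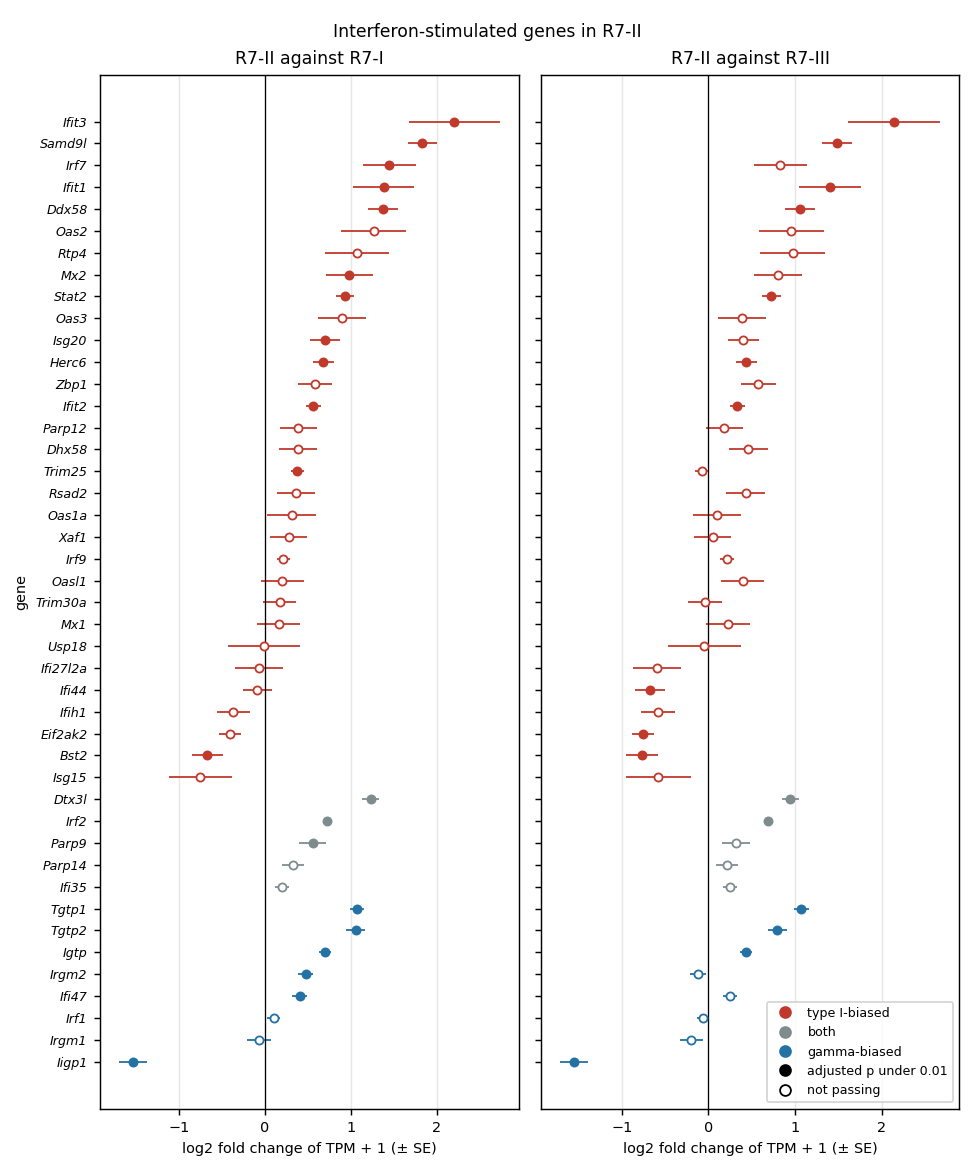
Log2 fold change of TPM + 1 in R7-II against R7-I (left) and against R7-III (right) for each of the 44 genes tested, with the standard error from limma as a bar; filled points passed an adjusted p under 0.01 and colours give the interferon that mainly induces the gene. Ifit3, at 2.21 and 2.15, and Samd9l, at 1.83 and 1.49, lie farthest to the right, and Iigp1, at -1.53 and -1.55, farthest to the left.

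Among the transcription factors, Stat2 and Irf2 rose in both comparisons and the others did not. Stat2, the subunit that makes the response to type I interferon distinct, was at 21.4, 21.5 and 29.0 TPM in R7-II, at 11.1, 12.8 and 12.0 in R7-I and at 12.9, 14.2 and 14.7 in R7-III. The R7-II libraries did not overlap the others, and the log2 differences were 0.93 ± 0.11 (SE, adjusted p = 2.61e-05, limma) and 0.72 ± 0.11 (adjusted p = 0.000165, limma). Its partner Irf9 was at 49.0, 50.8 and 61.6 TPM in R7-II, at 43.8, 48.3 and 45.7 in R7-I and at 44.0, 44.4 and 49.5 in R7-III. Its R7-II libraries overlapped R7-III and only just cleared R7-I, and neither difference passed, both being 0.22 ± 0.081 (adjusted p = 0.034 and 0.035, limma).

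Irf7, the factor that amplifies type I interferon production, was at 12.3, 22.9 and 40.1 TPM in R7-II, at 7.15, 8.85 and 7.04 in R7-I and at 10.2, 13.1 and 13.8 in R7-III. It passed against R7-I (log2 difference 1.45 ± 0.31, adjusted p = 0.00179, limma), though not after quantile normalization (adjusted p = 0.0129), and did not pass against R7-III (0.83 ± 0.31, adjusted p = 0.0348), whose values enclosed R7-II replicate 1. Without R7-II replicate 1 the second difference was 1.24 with an adjusted p of 0.000647. Irf1, the main factor induced by interferon gamma, was at 114, 144 and 137 TPM in R7-II, at 119, 123 and 124 in R7-I and at 134, 145 and 133 in R7-III. Its R7-II libraries overlapped both other clones, with log2 differences of 0.10 and -0.06 that did not pass, and the first became -0.072 with libraries scaled by the median of ratios. Irf2, which competes with Irf1 for the same sites, averaged 63.3 ± 2.07 (SD, n = 3) TPM in R7-II against 38.0 ± 0.312 in R7-I and 38.8 ± 0.945 in R7-III, a log2 difference of 0.72 and 0.69 (adjusted p = 1.38e-07 and 1.96e-07, limma).

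Of the 7 immunity-related GTPases, 3 were higher and 1 was lower in R7-II in both comparisons, against 31.9% and 12.8% of all genes tested. Tgtp1 and Iigp1 moved in opposite directions. Tgtp1 (Irgb6), which loads onto the parasite vacuole, was at 55.2, 67.1 and 69.9 TPM in R7-II, at 28.0, 32.2 and 29.3 in R7-I and at 31.1, 30.6 and 27.9 in R7-III. Iigp1 (Irga6), another GTPase that loads onto the vacuole, was at 3.18, 5.82 and 5.28 TPM in R7-II, at 17.5, 15.2 and 13.4 in R7-I and at 16.6, 15.7 and 14.4 in R7-III. Neither gene's R7-II libraries overlapped those of the other clones. Tgtp1 was 1.07 ± 0.086 above each on the log2 scale (adjusted p = 1.96e-06 and 1.99e-06, limma), while Iigp1 fell by 1.53 ± 0.16 and 1.55 ± 0.16 (adjusted p = 1.38e-05 and 1.35e-05, limma). Both genes kept these calls under every alternative run.

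Tgtp2, the near-identical neighbour of Tgtp1, was at 53.0, 62.2 and 79.3 TPM in R7-II, at 28.6, 29.8 and 32.5 in R7-I and at 36.0, 36.2 and 37.0 in R7-III, and passed in both comparisons. Of all 100-base stretches in their annotated transcripts, 73.1% of those of Tgtp1 and 76.8% of those of Tgtp2 also occur in the other or in Gm12185, so how reads were shared between them is uncertain. Igtp (Irgm3), a regulator that keeps the other GTPases off host membranes, was at 216, 259.8 and 256 TPM in R7-II, at 148, 147 and 154 in R7-I and at 185, 189 and 165 in R7-III. Its R7-II libraries lay above all others, by 0.70 ± 0.070 (adjusted p = 9.23e-06, limma) and 0.44 ± 0.070 (adjusted p = 0.000276, limma) on the log2 scale. Igtp and Irgm2 share 162 exonic bases on the same strand.

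The other GTPases did not separate R7-II from both clones. Ifi47 (Irgd) was at 209, 272 and 268 TPM in R7-II, at 182, 194 and 185 in R7-I and at 212, 218 and 196 in R7-III, and passed against R7-I (0.41 ± 0.086, adjusted p = 0.00164, limma) but not against R7-III (0.25 ± 0.086, adjusted p = 0.0252, limma). With libraries scaled by the median of ratios Ifi47 was 0.23 above R7-I and no longer passed (adjusted p = 0.067), and without R7-II replicate 1 it passed against R7-III (adjusted p = 9.39e-05). The regulator Irgm1 was at 58.7, 87.3 and 92.7 TPM in R7-II, at 77.8, 90.1 and 78.2 in R7-I and at 88.9, 90.8 and 89.0 in R7-III, and passed in no comparison. The regulator Irgm2 was at 23.6, 26.2 and 31.4 TPM in R7-II, at 17.8, 20.2 and 19.3 in R7-I and at 30.1, 30.1 and 27.6 in R7-III. Here both R7-II and R7-III lay above R7-I while overlapping each other, and R7-II passed against R7-I (0.47 ± 0.091, adjusted p = 0.000851, limma) but not with libraries scaled by the median of ratios (adjusted p = 0.0182).

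**Figure D4:**
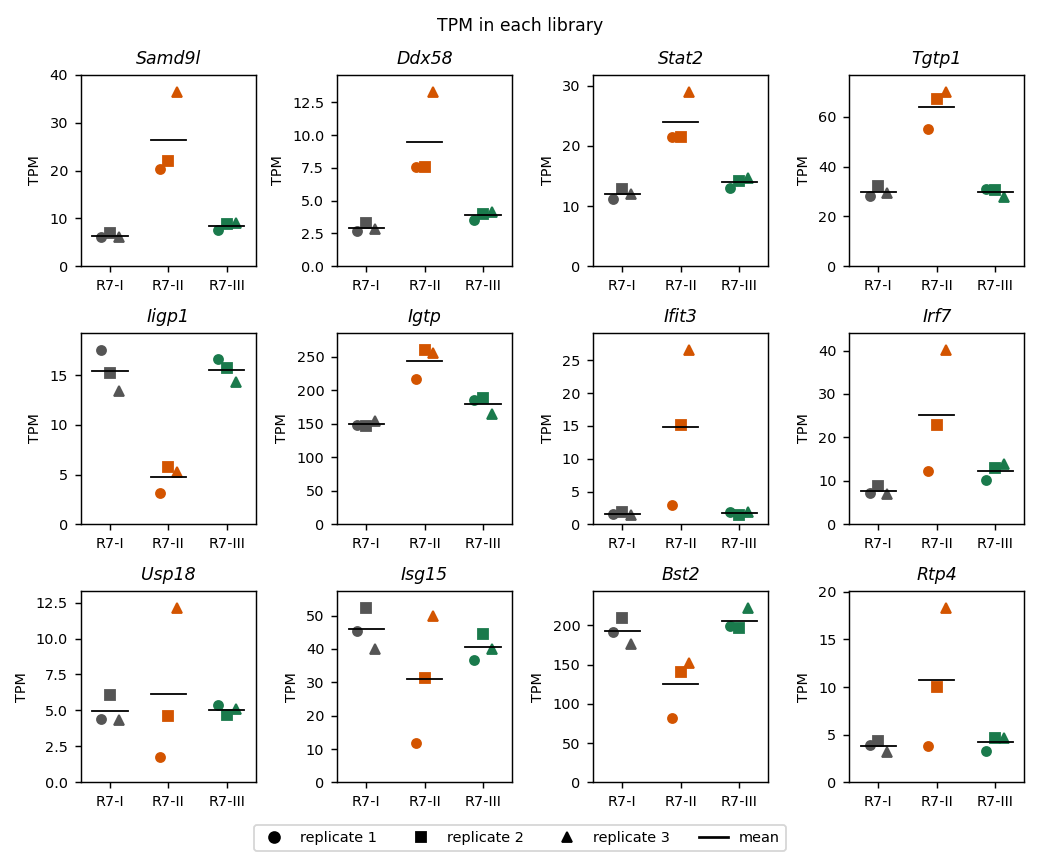
TPM in each library for 12 genes, with 1 panel per gene, a separate vertical axis from 0 in each, a symbol for each replicate and the mean of each clone as a bar. Samd9l, Ddx58, Stat2, Tgtp1 and Igtp lie above both other clones in all R7-II libraries and Iigp1 below, while Usp18 and Isg15 run from below the other clones in R7-II replicate 1 to within or above their range in replicate 3.

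Among nucleic acid sensors, Ddx58 (RIG-I), which detects RNA with a triphosphate end, was the 1 of 5 that rose. It was at 7.55, 7.60 and 13.3 TPM in R7-II, at 2.65, 3.29 and 2.87 in R7-I and at 3.55, 3.99 and 4.15 in R7-III. The R7-II libraries were all above the others, by 1.37 ± 0.17 (adjusted p = 5.13e-05, limma) and 1.06 ± 0.17 (adjusted p = 0.000343, limma). Eif2ak2 (PKR), the kinase that stops translation, averaged 2.96 ± 0.312 TPM in R7-II against 4.29 ± 0.940 in R7-I and 5.67 ± 0.385 in R7-III, and all its R7-II libraries lay below the other 6. It fell by 0.75 ± 0.13 against R7-III (adjusted p = 0.000391, limma), while the difference of -0.40 from R7-I did not pass (adjusted p = 0.0154, limma). The latter passed with libraries scaled by the median of ratios (-0.54, adjusted p = 0.00421), after quantile normalization (-0.75, adjusted p = 0.000464) and without R7-I replicate 3 (-0.54, adjusted p = 0.0023). Ifih1 (MDA5), Dhx58 (LGP2) and Zbp1 passed in neither comparison, with log2 differences from -0.59 to 0.58. After quantile normalization or without R7-II replicate 3, Ifih1 passed as lower in both, and without R7-II replicate 1, Zbp1 passed as higher in both.

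Among effectors, Samd9l, a protein that restrains growth and virus replication, showed a high level in every R7-II library. It was at 20.4, 22.1 and 36.4 TPM in R7-II, at 6.18, 7.02 and 6.05 in R7-I and at 7.60, 8.76 and 8.99 in R7-III. No libraries overlapped, and the log2 differences were 1.83 ± 0.17 (adjusted p = 6.27e-06, limma) and 1.49 ± 0.17 (adjusted p = 2.96e-05, limma). Bst2 (tetherin), which holds budding virus on the cell, was at 81.8, 141 and 152 TPM in R7-II, at 192, 210.1 and 176 in R7-I and at 199.8, 197 and 222 in R7-III. It fell by 0.67 ± 0.18 (adjusted p = 0.00757, limma) and 0.77 ± 0.18 (adjusted p = 0.00361, limma), with R7-II replicate 1 the lowest library. Leaving out any R7-I or R7-III library cost it the first of these calls (adjusted p between 0.0111 and 0.0303, limma), and the second was lost without R7-III replicate 1 (adjusted p = 0.01001) or 3 (adjusted p = 0.0155). Both calls were also lost after quantile normalization, without the filter on low values, without the trend, and with only the 6 libraries compared. Mx2 rose by 0.99 ± 0.28 against R7-I (adjusted p = 0.00886, limma) and the exonuclease Isg20 by 0.70 ± 0.17 (adjusted p = 0.00433, limma), while neither passed against R7-III (adjusted p = 0.0254 and 0.0606). Both calls were lost with libraries scaled by the median of ratios (adjusted p = 0.0202 and 0.0169), after quantile normalization and when any R7-I library was left out, and that of Mx2 also without any other single library except R7-II replicate 1. Without R7-II replicate 1 Mx2 passed against R7-III as well (adjusted p = 0.000794). Ifi44 fell by 0.67 ± 0.17 against R7-III (adjusted p = 0.00483, limma) and differed by -0.09 from R7-I without passing. The call was lost without R7-II replicate 1 or 2 or R7-III replicate 1 (adjusted p between 0.0107 and 0.0158), and with the replicate number as a block (adjusted p = 0.0105). Mx1, Rsad2, Ifi27l2a, Rtp4, Xaf1, Trim30a and Ifi35 passed in neither, although without R7-II replicate 1 Rtp4 and Ifi35 passed as higher in both.

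The genes of the RNA-binding Ifit proteins rose in R7-II against both clones. The oligoadenylate synthetase genes did not pass, which for Oas2 and Oas3 changed with the setting, and a difference between the families was not tested. Ifit3 differed by 2.21 ± 0.53 (adjusted p = 0.00365, limma) from R7-I and by 2.15 ± 0.53 (adjusted p = 0.00447, limma) from R7-III. Ifit1 differed by 1.39 ± 0.36 (adjusted p = 0.0053, limma) and 1.41 ± 0.36 (adjusted p = 0.00511, limma), and both genes had standard errors well above those of Stat2 or Tgtp1. Leaving out any single library other than R7-II replicate 1 cost Ifit3 a call, with adjusted p between 0.0106 and 0.0179, and leaving out any other than R7-II replicate 1 and R7-I replicate 2 cost Ifit1 a call, with adjusted p between 0.0126 and 0.0210. Ifit2 differed by 0.57 and 0.33 and lost the second call when R7-II replicate 3, R7-I replicate 1 or any R7-III library was left out, and with libraries scaled by the median of ratios (adjusted p = 0.0495). Oas2 differed by 1.27 ± 0.38 (adjusted p = 0.012, limma) and 0.96 ± 0.38 (adjusted p = 0.0441, limma), and Oas1a, Oas3 and Oasl1 by 0.10 to 0.90 without passing. Oas2 passed against R7-I with a pseudocount of 0.1 (2.30, adjusted p = 0.00389), with the replicate number as a block (adjusted p = 0.00915), and without R7-II replicate 1 (1.69, adjusted p = 0.00142) or 3 (0.71, adjusted p = 0.00642). Without R7-II replicate 1 Oas2 also passed against R7-III (adjusted p = 0.00482) and Oas3 against R7-I (adjusted p = 0.000862).

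Of the 4 genes of the list in the Isg15 system (Isg15, Usp18, Herc6 and Trim25), only the ligase Herc6 rose in both comparisons. It rose by 0.68 ± 0.12 (adjusted p = 0.000609, limma) and 0.44 ± 0.12 (adjusted p = 0.0093, limma). The second call was lost when any R7-I or R7-III library or R7-II replicate 3 was left out. It was also lost with libraries scaled by the median of ratios (adjusted p = 0.0383). The activating enzyme Uba7, which is not on the list, is given below with the upstream genes. Trim25 rose against R7-I (0.38 ± 0.077, adjusted p = 0.00135, limma) and did not pass against R7-III, and the first call was lost with libraries scaled by the median of ratios (adjusted p = 0.0475). Isg15 and Usp18 passed in neither, with Isg15 at -0.75 ± 0.37 and -0.58 ± 0.37 and Usp18 at -0.01 and -0.05 on the log2 scale. In the family of ADP-ribosylating enzymes and their partner, Dtx3l was at 30.4, 34.3 and 42.1 TPM in R7-II, at 13.9, 15.5 and 14.0 in R7-I and at 17.9, 18.2 and 17.5 in R7-III. It rose by 1.23 ± 0.097 and 0.94 ± 0.097 (adjusted p = 1.8e-06 and 1.21e-05, limma). Parp9, which forms a complex with Dtx3l, rose against R7-I by 0.56 ± 0.16 (adjusted p = 0.00923, limma) and did not pass against R7-III (0.32 ± 0.16, adjusted p = 0.0965, limma). The first call was lost with libraries scaled by the median of ratios (adjusted p = 0.0627), after quantile normalization (adjusted p = 0.151), with the replicate number as a block (adjusted p = 0.0103), and when any R7-I or R7-III library or R7-II replicate 2 was left out (adjusted p between 0.0138 and 0.0325), while without R7-II replicate 1 Parp9 passed against R7-III too (adjusted p = 0.00705). Parp12 and Parp14 passed in neither, although Parp14 passed in both without R7-II replicate 1. Dtx3l and Parp9 overlap by 367 exonic bases on opposite strands, and the reads carried no strand.

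R7-III and R7-I differed little. Of the 44 genes, 2 were higher in R7-III and 0 lower (limma), while 8.41% of all genes tested passed (6.96% higher, 1.45% lower). At an unadjusted p under 0.05, 9 were higher, or 20.5% of the list, and again 0 lower, against 23.8% and 8.51% of all genes tested. The 2 genes were Irgm2, at 0.59 ± 0.091 (adjusted p = 0.00159, limma), and Trim25, a ligase that switches on RIG-I. Trim25 was at 61.8, 61.1 and 63.1 TPM in R7-III, at 43.8, 47.6 and 44.0 in R7-I and at 53.6, 55.8 and 68.4 in R7-II. Its R7-III libraries were all above those of R7-I, by 0.45 ± 0.077 (adjusted p = 0.00295, limma), while R7-II overlapped R7-III. Without R7-I replicate 1 neither gene passed, with adjusted p of 0.0101 for Irgm2 and 0.0167 for Trim25, and leaving out R7-I replicate 3 or any R7-III library took Trim25 out as well. All R7-III libraries were above all R7-I libraries for 21 of the 44 genes and below for 0, against 29.5% and 12.4% of all genes tested, and the median log2 difference was 0.21 against 0.04.

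The R7-I libraries also had an order, though a narrow one. For 20 of 31 type I-biased genes R7-I replicate 3 was the lowest and R7-I replicate 2 the highest, as for 16.0% of all genes tested, with a median log2 range of 0.28. None of the 8 gamma-biased genes had this order, a group too small to set against that 16.0%. In R7-III the most frequent order had replicate 1 lowest and replicate 3 highest. It held for 12 of 31 type I-biased genes (38.7%), against 26.2% of all genes tested.

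The genes upstream of the list were also measured. Of 35 genes of interferon production and signalling considered here, 26 were tested; 15 were higher and 3 lower in R7-II than in R7-I, 11 higher and 5 lower than in R7-III, and Tyk2 and Ptpn6 were higher in R7-III than in R7-I. These shares may be read against the 56.1%, 53.6% and 8.41% of all genes given above. Among ligands, only Ifng was tested. It was at 25.2, 36.9 and 47.5 TPM in R7-II, at 153, 160.5 and 133 in R7-I and at 121, 117 and 128 in R7-III, and every R7-II library was far below the others. The fall in R7-II was 2.04 ± 0.17 (adjusted p = 2.85e-06, limma) against R7-I and 1.76 ± 0.17 (adjusted p = 8.37e-06, limma) against R7-III on the log2 scale. The type I and lambda genes Ifnb1, Ifna2, Ifna4, Ifnk, Ifnl2 and Ifnl3 were listed at 0 in every library, and Ifna1 and Ifne reached 0.14 and 0.15 TPM in 1 library each. Only the sorted cells were measured, and ligands made by other splenocytes in the culture were not.

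All 5 receptor subunits tested rose in R7-II against R7-I and 4 of them against R7-III. Of all genes tested, 40.6% were higher in the first comparison and 35.6% in the second. Ifngr2, the signalling subunit of the interferon gamma receptor, was at 18.1, 13.7 and 19.1 TPM in R7-II, at 6.13, 6.72 and 6.43 in R7-I and at 7.29, 7.36 and 7.51 in R7-III. Its R7-II libraries stood apart, by 1.26 ± 0.10 and 1.09 ± 0.10 (adjusted p = 2.55e-06 and 7.51e-06, limma). Ifngr1 rose by 0.67 and 0.68, Ifnar1 by 0.72 and 0.66, Il10rb, a subunit shared with interleukin-10, by 0.68 and 0.60, and Ifnar2 by 0.39 against R7-I, with 0.27 against R7-III not passing (adjusted p = 0.019, limma).

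Among regulators upstream of the list, Socs3, Uba7 and Ikbke rose beyond 2-fold in both comparisons and Socs1 did not pass. Socs3, an inhibitor of cytokine receptors, was at 28.8, 19.2 and 26.0 TPM in R7-II and between 2.23 and 4.53 TPM in the other libraries, a log2 difference of 2.35 ± 0.17 from R7-I and 2.61 ± 0.17 from R7-III. Socs1, which inhibits the kinases of both interferon receptors, averaged 51.2 ± 3.74 TPM in R7-II against 52.5 ± 3.02 in R7-I and 53.6 ± 8.66 in R7-III. Uba7, the enzyme that activates Isg15 for conjugation, rose by 2.13 ± 0.11 and 1.75 ± 0.11, although Isg15 itself did not pass. Ikbke, a kinase that activates Irf3 and Irf7, rose by 1.25 and 1.35. Besides Ifng, falls beyond 2-fold were seen for the transcription factor Irf8, by 1.48 and 1.54, and against R7-III for the DNA sensor Mb21d1 (cGAS), by 0.89 and 1.22.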

How the data were processed

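RNA of 9 libraries of sorted, ROP7 peptide-activated CD8 T cells was analysed, 3 per clone. The authors aligned 100-base reads without strand information and estimated gene levels with RSEM 1.2.11 on mm10 RefSeq genes, and deposited them as TPM. They tested counts with DESeq2 1.8.1. Counts were not used here, so log2(TPM + 1) was tested with limma 3.58.1 in R 4.3.3 (eBayes with trend) over all 9 libraries in 1 fit, on the 11330 genes whose highest TPM was above 1, with Benjamini-Hochberg adjustment over all of them and a threshold of 0.01. TPM sums to the same total in each library and hides its depth. The members and lists were chosen with earlier results of these data known.

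Values in every library are given for members beyond 2-fold in both R7-II comparisons, those passing between R7-III and R7-I, Stat2, Irf9, Irf1, Irf7, the immunity-related GTPases and members differing over 4-fold within a clone at a TPM above 1; pathway genes were Ifng, receptors, Socs1 and those beyond 2-fold, and 1 pathway gene is not reported here. Dtx3l, Isg15, Oasl2, Ifi44 and some others were added after their values were seen. The fit was tested on simulated data. Shared 100-base stretches and exon overlaps were counted in the GENCODE annotation of GRCm38, the build of mm10. Alternatives were another pseudocount, filter, scaling, moderation, threshold or set of libraries, a block for the replicate number, and each library left out in turn. Python 3.11.15, pandas 2.3.3 and matplotlib 3.10.9 were used for sequences and figures.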

Additional observations from a re-analysis of the deposited data

How the results depend on the processing

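Under every alternative run, Stat2, Irf2, Samd9l, Ddx58, Dtx3l, Igtp, Tgtp1 and Tgtp2 remained higher and Iigp1 lower in both R7-II comparisons, whereas Ifit1, Ifit2, Ifit3, Herc6 and Bst2 each lost a call under some. The causes were not tested. R7-II against R7-I had 19 higher and 2 lower members, with 12 higher under median-of-ratios scaling and 9 under quantile normalization, and 1 lower without the filter on low values, without the trend, or with only the 6 libraries compared. R7-II against R7-III had 20 higher members at an adjusted p of 0.05, and with a mean TPM above 5 it had 2 lower members and 2 members with all R7-II libraries below. R7-III against R7-I had 1 higher member under quantile normalization or without the trend, 4 at 0.05 and 5 with only the 6 libraries. Members higher in both became 19 at 0.05, and members lower in both became 1 without the filter, without the trend, or with only the 6 libraries. The type I-biased median against R7-I was 0.073 under quantile normalization, and under median-of-ratios scaling the gamma-biased median was 0.27 in R7-II against R7-I and turned to -0.033 in the comparison with R7-III, while Irf1 against R7-I became -0.072 (adjusted p = 0.482, limma).

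When single libraries were left out, members of R7-II against R7-I ranged from 14 to 26 higher and from 1 to 4 lower, those of R7-II against R7-III from 8 to 21 higher and from 2 to 7 lower, and those of R7-III against R7-I from 0 to 3 higher. Members called in both R7-II comparisons ranged from 8 to 21 higher and from 1 to 3 lower. Members not overlapping ranged from 3 to 5 with R7-II below R7-I, from 13 to 27 above and 4 to 11 below R7-III, and from 0 to 3 with R7-III below R7-I. Without R7-II replicate 1, Irf7, Oas2, Mx2, Rtp4, Ifi35, Zbp1, Parp9, Parp14 and Ifi47 were added to those higher in both, and without R7-II replicate 3, Ifih1 was added to those lower in both.

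Same-numbered libraries of different clones had deviations correlated at -0.0449 to 0.0888, and differently numbered ones at -0.0948 to 0.0649. Pairing by number was thus not seen, although such weak correlations cannot exclude it. Not every library correlated best with its own number. With the replicate number as a block, 19 members were higher and 2 lower in R7-II than in R7-I, 12 higher and 3 lower than in R7-III, and 2 higher in R7-III than in R7-I; those higher in both were still 12, with Mx2 in place of Ifit2.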
